A study of Mus musculus with 9 samples.

Results

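The keratin gene clusters were examined in region lists from chromatin immunoprecipitation followed by sequencing (ChIP-seq) of 3 histone marks in 3 mouse pancreatic cancer cell lines. The members were all enriched regions that overlap the window of the type II keratin cluster, on chromosome 15 from 101170001 to 101870000 (700 kb), or that of the type I cluster, on chromosome 11 from 99270001 to 100140000 (870 kb), on genome build mm9. They numbered 213 of the 185632 regions in the 9 lists, with 129 in the type II window and 84 in the type I window. By mark, 55 were H3K4me3 regions, 69 H3K27me3 regions and 89 H3K27ac regions. Reads in regions ranged from 2396174 to 18507923 per list, and the total depth was not given in the sources used here. A region is a stretch in which neighbouring windows held more reads than background, and the lists give its borders and its reads.

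Of the lines, 1 was female and 2 were male. The female line and 1 of the male lines lack Kdm6a and are called female KO and male KO, and the other male line keeps the gene and is called WT. Kdm6a is an X-linked gene whose product is a demethylase of histone H3 lysine 27. All 3 lines were labelled as pancreas of a mixed C57BL/6-SV129 strain, were grown in F12/DMEM with EGF and received no treatment. Each line has 1 library per mark. No female WT line was analysed here, so sex and Kdm6a loss cannot be told apart for female KO cells. The deletion of Kdm6a and markers of the pancreatic lineage were not checked, since no gene was placed on mm9. With no replicates no test was possible, and each difference below is between libraries. How the tumours arose, the animals' ages and the driver of any Cre were not given in the sources used here.

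Keratins are the intermediate filament proteins of epithelia, and a type I keratin pairs with a type II keratin in each filament. Simple epithelia such as pancreatic ducts use Krt8 and Krt7 (type II) with Krt18 and Krt19 (type I), and Krt18 is a type I gene that lies in the type II cluster beside its partner Krt8. Krt5 and Krt14 are the pair of basal cells in stratified epithelia. Krt6a, Krt6b, Krt16 and Krt17 are induced in wounds and squamous lesions. H3K4me3 marks promoters, H3K27ac marks active promoters and enhancers, and H3K27me3, the mark that Kdm6a erases, is found over genes kept silent by Polycomb proteins.

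The 10 keratins of interest are 4 simple-epithelial genes (Krt7, Krt8, Krt18 and Krt19) and 6 basal and squamous genes (Krt5, Krt6a, Krt6b, Krt14, Krt16 and Krt17). The gene table used here belongs to assembly GRCm38.p6, not to mm9, so it gave names and order only, and no region was assigned to a gene. The list taken from this table holds 26 protein-coding keratin genes from Krt80 to Krt18 along chromosome 15, and Krt85 is not among them. In that list Krt7 is number 2, Krt6b, Krt6a and Krt5 are numbers 12 to 14, and Krt8 and Krt18 are numbers 25 and 26. The simple-epithelial genes thus stand at both ends of the order, and the basal and squamous genes stand between them. The genes between include hair keratins such as Krt81 and Krt86 before Krt6b, and skin keratins such as Krt1 and Krt2 after Krt5. Other kinds of keratin were not sorted here. Among the 25 keratin genes from Krt25 to Krt42 along chromosome 11, Krt19 is number 20, Krt14 is number 22, and Krt16 and Krt17 are numbers 23 and 24. A block with 23 Krtap genes, which encode keratin-associated proteins of hair, separates the first 10 keratin genes from the other 15. Whether the type I window begins at Krt25 was not tested.

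Promoter letters from RefSeq (GRCm38.p6) were matched for 5 of the 10 genes. The 250 bases before the annotated start of 4 of them are shown, 5′ to 3′, because CG dinucleotides (in capitals) differ between them. The Krt14 entry starts inside the gene's own span in the gene table and is not shown. Krt7 and Krt18 are on the plus strand and Krt8 and Krt5 on the minus strand.
Krt7: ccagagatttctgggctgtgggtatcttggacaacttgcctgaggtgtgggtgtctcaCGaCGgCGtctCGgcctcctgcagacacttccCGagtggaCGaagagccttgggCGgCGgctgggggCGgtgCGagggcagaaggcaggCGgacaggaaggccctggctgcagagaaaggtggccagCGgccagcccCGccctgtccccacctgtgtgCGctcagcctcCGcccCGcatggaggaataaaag
Krt18: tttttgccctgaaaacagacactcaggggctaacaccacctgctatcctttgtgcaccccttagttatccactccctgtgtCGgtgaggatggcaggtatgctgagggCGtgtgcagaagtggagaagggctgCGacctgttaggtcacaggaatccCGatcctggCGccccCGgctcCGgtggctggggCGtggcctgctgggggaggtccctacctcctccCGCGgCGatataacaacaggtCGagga
Krt8: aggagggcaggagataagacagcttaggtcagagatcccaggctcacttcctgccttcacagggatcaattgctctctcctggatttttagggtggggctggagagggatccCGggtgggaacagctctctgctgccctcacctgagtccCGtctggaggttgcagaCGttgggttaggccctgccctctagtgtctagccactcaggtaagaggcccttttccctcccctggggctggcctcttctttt
Krt5: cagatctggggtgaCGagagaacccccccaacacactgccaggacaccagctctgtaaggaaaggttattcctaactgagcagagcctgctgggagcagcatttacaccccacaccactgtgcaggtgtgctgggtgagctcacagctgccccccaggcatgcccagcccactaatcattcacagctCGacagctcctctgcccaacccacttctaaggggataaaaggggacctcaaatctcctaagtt
The stretch before Krt7 holds 16 CG dinucleotides and that before Krt18 holds 12, against a median of 6 over the 32851 promoters of the table. The stretches before Krt8 and Krt5 hold 3 and 2, and 71.0% and 81.2% of all promoters hold at least as many. The low count of the simple-epithelial gene Krt8 was thus close to that of the basal gene Krt5. The motif GGGCGG, searched on both strands and present in 32.7% of all promoters, was found 4 times before Krt7 and in none of the other 3 stretches. The motif TGANTCA, present in 6.75% of all promoters, was in none of the 4. Because these starts were not placed on mm9, no mark was read at these letters.

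Of the 3 marks, H3K27me3 differed most across the lines in the share of the type II window that it covered. H3K27me3 regions covered 511.8 kb of the window in female KO cells (73.1%), 344.6 kb in male KO cells (49.2%) and 175 kb in WT (25%). The same lists covered 13.0, 8.96 and 5.45% of the genome, so the window held 5.62, 5.50 and 4.59 times the genome share. On that relative scale H3K27ac differed most, at 3.73, 6.19 and 7.54 times in female KO, male KO and WT cells. Its share of the window differed little, at 28.2, 34.3 and 31.4%. The spread on the relative scale came mostly from its genome shares of 7.57, 5.55 and 4.16%. All WT H3K27me3 coverage was also covered by H3K27me3 in female KO cells, and 99.3% of it in male KO cells. A further 170.8 kb was covered in both KO lines and not in WT, 166 kb in female KO cells alone, and none in WT alone or male KO alone. Across all 3781 genome tiles of the same length, the median tile was covered by 1.60, 0.771 and 0.629% in the lists of female KO, male KO and WT cells. The 90th percentile of the tiles was 44.6, 31.6 and 17.7%. Tiles covered at least as much as this window made up 1.32, 3.70 and 5.69% of all tiles. Reads in H3K27me3 regions of the whole genome also followed this order, 18507923, 4811961 and 2396174. When the KO lists were cut to the covered length of the WT list from the highest read count down, the window was covered by 53.1% in female KO cells and 42.6% in male KO cells, against 25% in WT. This cut favours long regions with many reads and leaves the WT list whole. It does not make depth equal, and an effect of depth on these shares was not tested.

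**Figure D1:**
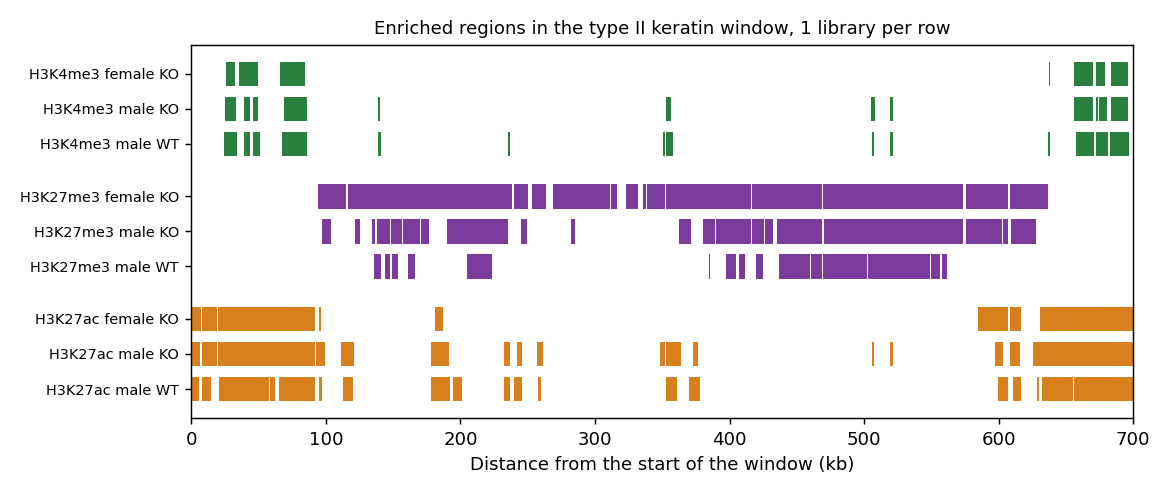
Bars show the regions of each of the 9 lists along the type II window, from its start at 0 to its end at 700 kb, with 1 row per library and colour by mark. H3K4me3 and H3K27ac lie at both ends in every line, and H3K27me3 lies between them over 542.2 kb in female KO cells, 530.4 kb in male KO cells and 426 kb in WT, counted from its first to its last base.

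At the ends of the type II window H3K27ac was the main mark, and in part of its interior H3K27me3 was. H3K27ac covered 97.7, 96.9 and 82% of the first 70 kb in female KO, male KO and WT cells, and 99.1, 100 and 96% of the last 70 kb. H3K27me3 was not found in the first 70 kb of any line, and in the last 70 kb it covered 9.43% in female KO cells and none in the male lines. The gene order begins with Krt80 and Krt7 and ends with Krt8 and Krt18, but these genes were not placed on the 2 ends. From 420 to 560 kb, inside the window, the order was the other way. There H3K27me3 covered 98, 92 and 80.3% of the first 70 kb segment and 100, 100 and 96% of the second in female KO, male KO and WT cells, and H3K27ac was found only in male KO cells, over 6% of the second segment.

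The H3K27me3 stretch began and ended at different places in the lines. Its first base lay 94.4 kb from the window start in female KO cells, 97.4 kb in male KO cells and 135.4 kb in WT. Its last base lay at 636.6, 627.8 and 561.4 kb. The WT stretch was thus shorter at both ends than those of the KO lines. The WT list also held the fewest H3K27me3 reads, 2396174. The borders were read in the deposited lists only, and an effect of depth on them was not tested. From 560 to 630 kb H3K27me3 covered 96% in female KO cells, 88.9% in male KO cells and 2% in WT. H3K27ac covered 43.7, 25.1 and 20.9% of the same segment. From 280 to 350 kb the KO lines differed from each other, with H3K27me3 over 82.3% in female KO cells, 4.57% in male KO cells and none in WT.

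**Figure D2:**
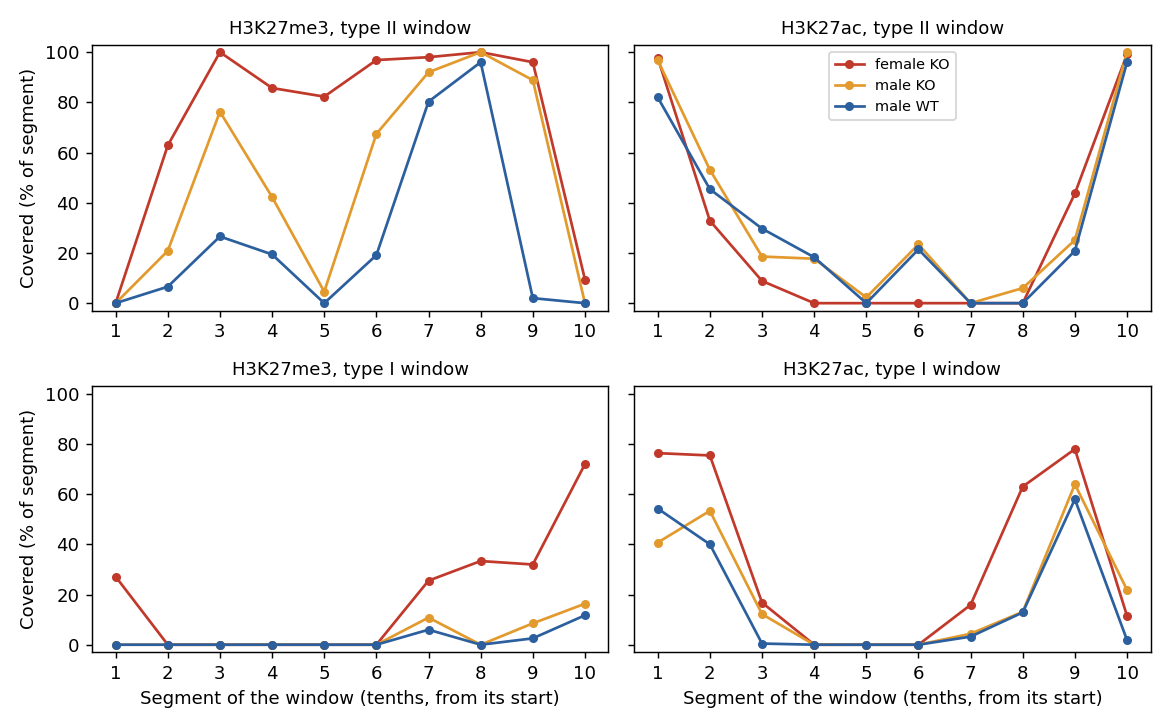
Each point is the share of 1 of 10 equal segments of a window covered by H3K27me3 (left) or H3K27ac (right), with the type II window above, the type I window below and 1 line per cell line. In segment 9 of the type II window H3K27me3 covers 96% and 88.9% in the female and male KO lines and 2% in WT.

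The longest H3K27me3 region of each list in the type II window ranked high in that list by reads. In female KO cells a region of 121.8 kb, from 101286401 to 101408200, held 10541 reads and ranked 200 of 21352 by reads. In male KO cells a region of 103.2 kb, from 101640001 to 101743200, held 3284 reads and ranked 49 of 28263. In WT a region of 46 kb, from 101673201 to 101719200, held 1006 reads (945 to 1070, exact Poisson 95% interval) and ranked 104 of 26288. The WT and male KO regions lay within a merged region of 103.8 kb (101639801 to 101743600) that the 3 lists covered over 103.8, 103.2 and 88.8 kb. Its level was 1.39 in female KO cells, 1.38 in male KO cells and 1.17 in WT. A level is the reads of a list per kb that the same list covers in the region, divided by a mean. That mean is the reads per kb of the same list over autosomal bins held by all 3 lists of the mark.

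Of 14 merged H3K27me3 regions in the type II window, 4 were shared by all 3 lists, 5 by both KO lists but not WT, and 5 were in the female KO list alone. Over the genome these patterns made up 21.6, 9.70 and 25.8% of 32532 merged regions. The 5 regions of both KO lists ranged from 10.8 to 41.8 kb, and all are named here. The region from 101745401 to 101777200 was covered over 31.8 kb with 2219 reads in female KO cells and over 30.6 kb with 856 reads in male KO cells. The neighbouring region from 101778201 to 101806600 was covered over 28.4 and 18.4 kb, with 1613 and 319 reads. Both lie beyond the last H3K27me3 base of WT. On the near side, the region from 101264401 to 101284800 was covered over 20.4 kb with 1158 reads in female KO cells and over 6.2 kb with 166 reads in male KO cells. The region from 101409601 to 101420400 held 750 and 75 reads. In the region from 101439001 to 101480800 the male KO list covered only 3.2 kb of 41.8 kb, with 43 reads against 1757.

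In the type II window, 3 H3K4me3 regions had a level above 1 in all 3 lines, and they lay near the ends. Near the start, the merged region from 101236201 to 101256200 held 4815 reads in female KO cells, 2118 in male KO cells and 3792 in WT, with levels of 1.38, 1.06 and 1.18. It ranked 185, 65 and 84 by reads in the 3 lists. At the far end, the region from 101852601 to 101866600 held 3901, 1813 and 3551 reads, with levels of 1.66, 1.24 and 1.47. Beside it, the region from 101825801 to 101840600 held 3318, 1666 and 2518 reads, with levels of 1.23, 1.02 and 1.12. In each of these 3 regions the female KO level was the highest and the male KO level the lowest, so the lines did not order by genotype. Each was covered by H3K27ac over its full length and by no H3K27me3 in any line.

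The other H3K4me3 regions shared by the 3 lists at the ends did not reach a level of 1 in every line. Those from 101194601 to 101204200 and from 101205401 to 101220800 had levels between 0.479 and 1.08, with female KO cells lowest in the former (0.617) and highest in the latter (0.805). In the former the male KO level was 1.08, above that of 2 of the 3 regions just described. The region from 101842001 to 101851200 had levels of 0.324, 0.335 and 0.422 in female KO, male KO and WT cells. A region across the window start, from 101165401 to 101170200, lay almost wholly outside the window. The region from 101806401 to 101808400 was in the female KO and WT lists and not in male KO, with 25 and 76 reads and levels of 0.223 and 0.220.

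**Figure D3:**
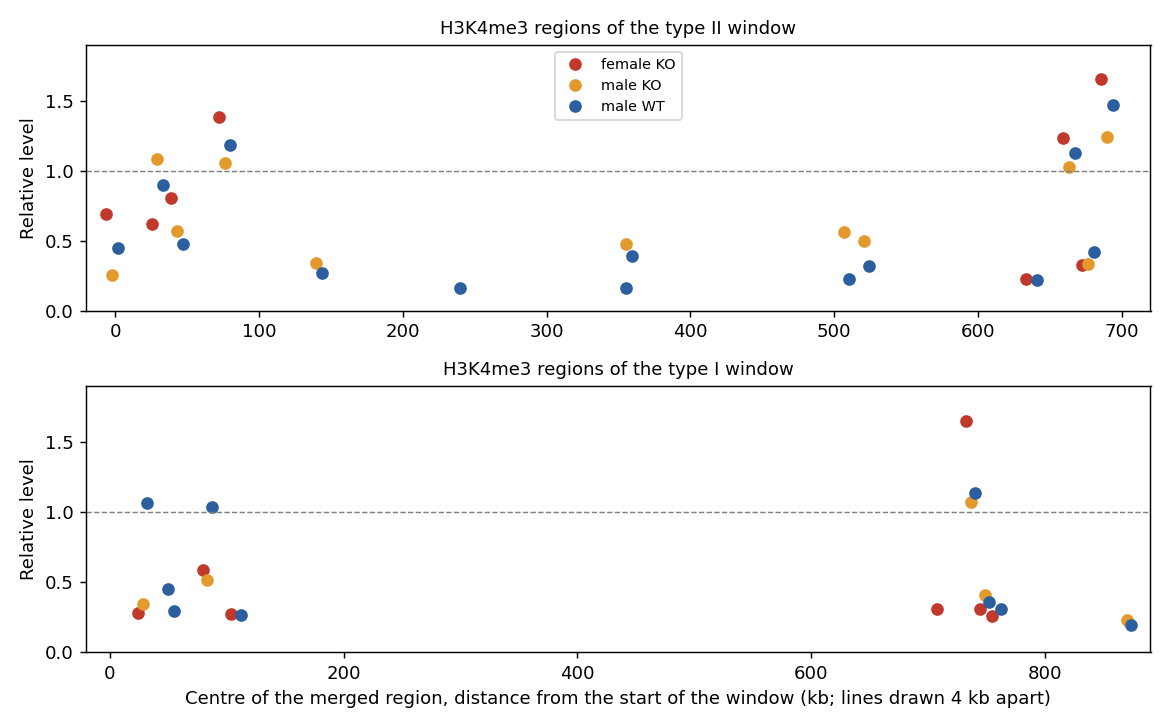
Each point is 1 merged H3K4me3 region in 1 cell line, placed at its centre along the type II window (above) or the type I window (below). Its height is its level, the reads per kb covered by the list over the mean of the same list in autosomal bins held by all 3 lists (dashed line at 1). The type II regions with a level above 1 lie near the ends of the window, and those between lie from 0.161 to 0.559, with none in the female KO list from 84.8 to 637.4 kb.

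Inside the type II window the male lines carried small H3K4me3 regions that the female KO list lacked. The longest stretch between H3K4me3 regions was 552.6 kb in female KO cells, against 212.4 kb in male KO cells and 147.8 kb in WT. Within it, 4 merged regions were in the male KO and WT lists and not in the female KO list, and 2 were in WT and neither KO list. Over the genome these patterns made up 6.64 and 8.42% of 18565 merged H3K4me3 regions. The largest, from 101522601 to 101527800, held 192 reads in male KO cells and 351 in WT, with levels of 0.479 and 0.391. H3K27ac covered it over 5.2 kb in male KO cells and 4.4 kb in WT and was absent in female KO cells. H3K27me3 covered 4.8 of its 5.2 kb in female KO cells and none of it in the male lines. It was singled out after its values were seen.

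Of the other small regions, 3 lay in H3K27me3 in the lines that carried them. The region from 101675401 to 101677800 held 158 reads in male KO cells and 79 in WT, and that from 101689401 to 101691600 held 117 and 110. Both lay wholly within H3K27me3 in all 3 lines. H3K27ac covered 1.8 and 2.2 kb of them in male KO cells and none in WT or female KO cells. The region from 101308601 to 101310800 held 73 and 94 reads, lay within H3K27me3 over at least 2 of its 2.2 kb in each line, and had no H3K27ac. The regions found in WT and neither KO line, from 101405401 to 101406800 and from 101520201 to 101521800, held 39 and 45 reads in WT. Both were covered by H3K27me3 in female KO cells, which had no H3K4me3 there, and by none in the male lines.

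Some H3K27ac regions inside the window were also in the male lists and not in the female KO list. Of 19 merged H3K27ac regions, 8 were in all 3 lists, 6 in male KO and WT and not female KO, 4 in the male KO list alone and 1 in WT alone. Over the genome these patterns made up 44.6, 8.22, 16.5 and 8.12% of 26835 merged regions. None was in the female KO list alone or in both KO lists but not WT. Of the 6 regions without female KO cells, the one from 101522601 to 101534000 held the most reads, 1197 in male KO cells and 343 in WT, with levels of 1.19 and 1.21. The next, from 101281401 to 101290600, held 899 and 300 reads, with levels of 1.11 and 0.999. The region in WT alone, from 101364801 to 101371400, held 99 reads over 6.6 kb.

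At the ends, H3K27ac regions were among the largest of their lists. The region from 101190001 to 101261800 held 13786 reads over 71.8 kb in male KO cells, rank 6 of 23965, and female KO cells held 10346 reads over 71.6 kb of the same stretch, rank 30 of 18501. In WT that stretch was split, and its largest piece, from 101190801 to 101227800, held 2676 reads, rank 24 of 20324. At the far end the female KO region from 101800601 to 101888000 held 11818 reads (rank 18), the male KO region from 101795801 to 101885400 held 13297 (rank 7) and the WT region from 101825801 to 101878800 held 3824 (rank 8). All 3 far-end regions run past the window end. A region at the window start, centred outside the window, had the highest H3K27ac levels met here, 4.30, 4.36 and 3.63.

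**Figure D4:**
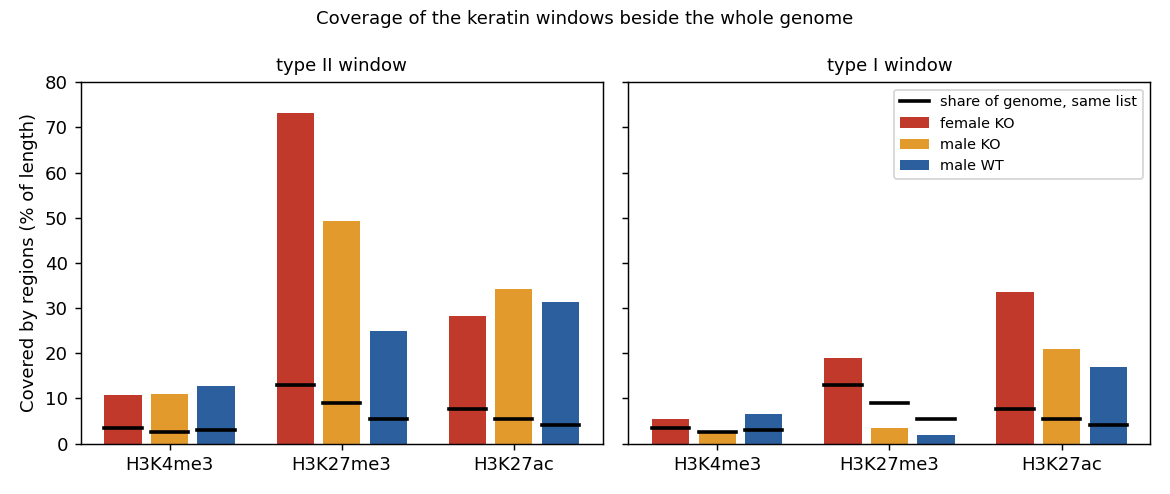
Bars show the share of each window covered by regions of each mark in the lists of female KO, male KO and WT cells, and black lines show the share of the genome that the same list covers. In the type II window all 9 bars stand above the black line, and in the type I window the H3K27me3 bars of male KO cells (3.56%) and WT (2.02%) stand below it.

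In the type II window, part of the H3K27me3 found in a KO line and not in WT lay over H3K27ac of WT. This was 75.8 of 336.8 kb in female KO cells and 26 of 170.8 kb in male KO cells. WT H3K27ac was missing over 52.4 kb in female KO cells and 18.8 kb in male KO cells, and 50.4 and 12.6 kb of that length held H3K27me3 in the KO list and not in WT. The former lengths were 22.5 and 15.2% of the H3K27me3 absent from WT, beside 5.45 and 1.86% over the genome. The latter were 96.2 and 67.0% of the missing H3K27ac, beside 24.6 and 5.80%. The window and the genome differ in coverage, so these shares are not like for like. WT H3K27ac covered 31.4% of the window and 4.16% of the genome. H3K27me3 covered 73.1 and 49.2% of the window in female and male KO cells, and 13.0 and 8.96% of the genome. In the type I window the H3K27me3 absent from WT lay over WT H3K27ac along 6.6 of 147.6 kb in female KO cells (4.47%). In male KO cells it did so along 0 of 16 kb. None of the missing WT H3K27ac (0.6 and 23.8 kb) held H3K27me3 found in the KO list and not in WT. In the reverse direction, in the type II window, H3K27ac of male KO cells lay over 4.2 kb of WT H3K27me3, and that of female KO cells over none. Within a line, H3K27ac and H3K27me3 of the type II window overlapped over 44.2 kb in female KO cells, 26.8 kb in male KO cells and 0 kb in WT. These were 8.64, 7.78 and 0% of the H3K27me3 length in the window, beside 6.29, 1.87 and 0.293% over the genome. H3K27ac itself covered 28.2, 34.3 and 31.4% of the window, against 7.57, 5.55 and 4.16% of the genome. The higher overlap shares in the KO lines therefore do not show that the 2 marks met more often here than their coverage would give.

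The type I window had a different layout, with H3K27ac at both sides of an unmarked middle and little H3K27me3 in the male lines. H3K27me3 covered 165.2 kb in female KO cells (19%), 31 kb in male KO cells (3.56%) and 17.6 kb in WT (2.02%). Relative to the genome shares of the same lists these were 1.46, 0.398 and 0.371 times. Female KO cells alone held 131.6 kb of it. With lists of the same covered length by read count the shares were 5.43, 0 and 2.02%, so the order of male KO cells and WT turned. H3K27ac covered 293 kb in female KO cells (33.7%), 182.2 kb in male KO cells (20.9%) and 148.4 kb in WT (17.1%), which is 4.45, 3.78 and 4.10 times the genome shares.

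**Figure D5:**
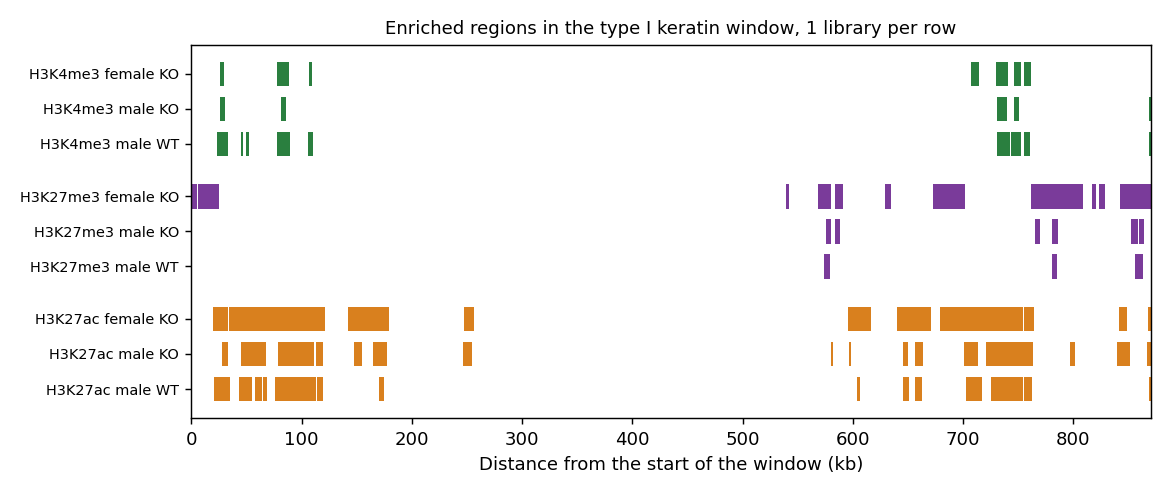
Bars show the regions of each of the 9 lists along the type I window, from its start at 0 to its end at 870 kb, with 1 row per library and colour by mark. From 256.4 to 539.8 kb no list holds a region.

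The stretch with no region of any mark in any of the 9 lists was 283.4 kb long, from 99526401 to 99809800. In the type II window the longest such stretch was 6.6 kb. No H3K4me3 region of any line lay between 110 and 707.4 kb of the type I window. In the gene order, the Krtap block lies between the keratins of the near side and those of the far side, but it was not placed on this stretch.

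On the near side of the type I window 2 H3K4me3 regions had a higher level in WT than in either KO line. The merged region from 99293201 to 99303200 held 1843 reads over 10 kb in WT, against 176 over 3.4 kb in female KO cells and 171 over 4.2 kb in male KO cells. Its levels were 1.07 in WT, 0.277 in female KO cells and 0.345 in male KO cells. The region from 99347801 to 99359200 held 2037 reads in WT, 1125 in female KO cells and 268 in male KO cells, with levels of 1.04, 0.590 and 0.517. In both regions the WT level stood above those of both KO lines. The levels of the KO lines lay close to each other, but each is taken over the length that the list itself covers. In the second region that length was 10.2 kb in female KO cells and 4.4 kb in male KO cells, so the close levels do not mean equal signal. A further 2 regions nearby, from 99315401 to 99316600 and from 99319601 to 99322400, were in WT and neither KO list, with 93 and 143 reads. At the fifth region of this side, from 99375801 to 99380000, the WT level was not higher, and the male KO list lacked the region. WT had a level of 0.265 (192 reads over 4.2 kb) against 0.273 in female KO cells (153 reads over 3 kb). H3K27ac was present in all 3 lines at these 5 regions, and covered 10, 5.2 and 9.4 kb of the first in female KO, male KO and WT cells. By rank, the first 2 stood at 1356 and 963 of 15975 regions in WT, while the second stood at 6131 of 14056 in female KO cells and 9811 of 16908 in male KO cells.

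On the far side, 1 H3K4me3 region was strong in every line. The region from 100000201 to 100012400 held 3277 reads in female KO cells, 1135 in male KO cells and 2271 in WT, with levels of 1.65, 1.07 and 1.13. It was covered by H3K27ac over its full 12.2 kb and by no H3K27me3 in any line. It was the only H3K4me3 region of the type I window whose level was above 1 in all 3 lines. The weaker neighbour from 100013801 to 100022400 had levels of 0.306, 0.410 and 0.361. A region from 99977401 to 99984800 was in the female KO list alone, with 428 reads, and one from 100025401 to 100031200 was in the female KO and WT lists, with 284 and 289 reads. The region from 100138601 to 100140600, at the window end, was in the male KO and WT lists and not in female KO, with 43 and 54 reads and levels of 0.228 and 0.196. H3K27ac covered the surrounding stretch from 99949001 to 100034400 over 84.8 kb in female KO cells, 55.6 kb in male KO cells and 50.4 kb in WT.

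The last 87 kb of the type I window differed from the 87 kb before it. In segment 9, H3K27ac covered 77.9, 63.9 and 57.9% in female KO, male KO and WT cells, and H3K27me3 covered 32.0, 8.51 and 2.53%. In segment 10, H3K27ac was 11.5, 21.8 and 1.84%, and H3K27me3 was 72.0, 16.3 and 11.7%. In the gene order Krt19 stands before Krt14, Krt16 and Krt17, and all 4 stand in the last 6 keratin genes. The segments were not assigned to them. The largest H3K27me3 region here, from 100031201 to 100078400, held 2101 reads over 47.2 kb in female KO cells. The male KO and WT lists covered 10.2 and 4.8 kb of it, with 197 and 76 reads. The next, from 100112001 to 100143200, was covered over 31.2, 11.4 and 7.6 kb, with 1643, 177 and 100 reads.

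In segment 10, WT held H3K27ac only at the far edge, in a region that all 3 lists share and that runs past the window end. The region from 100109201 to 100121000 was in both KO lists but not WT, with 256 reads over 7.8 kb in female KO cells and 507 reads over 11.2 kb in male KO cells, at levels of 0.462 and 0.514. The region from 100066801 to 100071600 was in the male KO list alone, with 220 reads over 4.8 kb. The other H3K27ac region of both KO lists but not WT lay on the near side, from 99516801 to 99526400, with 452 and 432 reads and levels of 0.678 and 0.645. Only 1 merged H3K27me3 region of the type I window was in both KO lists but not WT, from 99853601 to 99861200, with 389 and 91 reads.

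Over both windows together, the 7 patterns in which the lists can hold a merged region were set beside all merged regions of the same mark. Of 25 merged H3K27me3 regions, 8 were in all 3 lists (32%, Wilson 95% interval 17.2 to 51.6%), against 21.6% over the genome. Those in both KO lists but not WT numbered 6 (24%, 11.5 to 43.4%), against 9.70%, and those in WT and neither KO numbered 0 (0 to 13.3%), against 12.3%. The female KO list alone held 11 (44%, 26.7 to 62.9%), against 25.8%, and the male KO list alone held 0 (0 to 13.3%), against 20.9%. No H3K27me3 region was in WT and 1 KO list, against 6.25% for male KO with WT and 3.50% for female KO with WT.

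Of 24 merged H3K4me3 regions, 11 were in all 3 lists (45.8%, 27.9 to 64.9%), against 65.0% over the genome. Both KO lists but not WT held 0, against 3.20%, and WT and neither KO held 4, against 8.42%. Male KO and WT without female KO held 5 (20.8%, 9.24 to 40.5%), against 6.64%, while 3 were in female KO and WT alone (12.5%, 4.34 to 31.0%), against 1.84%. The female KO list alone held 1, against 4.50%, and the male KO list alone 0, against 10.4%. Of 29 merged H3K27ac regions, 14 were in all 3 lists, against 44.6%, 2 in both KO lists but not WT, against 9.69%, and 1 in WT and neither KO, against 8.12%. Male KO and WT without female KO held 6 (20.7%, 9.85 to 38.4%), against 8.22%, and the male KO list alone also held 6, against 16.5%. The remaining H3K27ac patterns, female KO alone and female KO with WT, held 0, against 10.3 and 2.56%.

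The genome value lay below the interval for 5 of the 21 shares, above it for 2 and inside it for 14. The 5 were H3K27me3 in both KO lists but not WT and in female KO alone, H3K4me3 in male KO with WT and in female KO with WT, and H3K27ac in male KO with WT. The 2 were H3K27me3 in male KO alone and, by a narrow margin, H3K4me3 in all 3 lists. The intervals treat regions as independent, which neighbours in 1 cluster are not. In lists cut to equal covered length, the H3K27me3 count in both KO lists was 1 by read count and 3 by reads per kb. Both KO comparisons share the WT list.

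Within each line, H3K4me3 regions of the windows were compared with those of the whole list. H3K27ac overlapped 15 of 15 in female KO cells, 16 of 17 in male KO cells and 19 of 23 in WT, beside 82.8, 77.5 and 74.8% over the genome. H3K27me3 overlapped 0 of 15 in female KO cells (0 to 20.4%), 3 of 17 in male KO cells (6.19 to 41.0%) and 3 of 23 in WT (4.54 to 32.1%), beside 29.7, 19.2 and 8.97%. Thus female KO cells, whose H3K27me3 list covers the most length with the fewest regions (21352), had no H3K4me3 region in H3K27me3 here. The genome value of 29.7% lay outside the interval, but the interval treats neighbouring regions as independent, which they are not. Both H3K27 marks were present at 2 regions of male KO cells, and at none in the other lines. In lists kept from their median count upwards, the male KO and WT counts with H3K27me3 were 0, and those with H3K27ac were 6, 6 and 7.

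Levels were also compared where all 3 lists of a mark hold a region. The reads of each region were spread evenly over its bins, since the lists give no reads per bin. A value in a shared bin is thus the mean of a whole region, and the ratios depend on region lengths, which differ between lists. In 173.8 kb of shared H3K27me3 bins of the type II window, the log2 ratio of reads over WT, minus the median over autosomal windows of 5 Mb, was 0.51 for female KO cells and 0.32 for male KO cells. From the 5th to the 95th percentile those windows spanned -0.49 to 0.61 for female KO cells and -0.27 to 0.27 for male KO cells. The male KO value lay above that span and the female KO value within it. Centred and compared on windows of 700 kb, the size of the cluster window, the male KO value was 0.311, just inside the span of -0.317 to 0.313. For H3K27ac in 163.4 kb of the same window the log2 ratios were 0.37 and 0.31, with spans of -0.31 to 0.37 and -0.28 to 0.29. On windows of 700 kb the male KO value was 0.327, inside the span of -0.392 to 0.389. For H3K4me3 in the same window the log2 ratios were 0.15 and -0.11. In the type I window the H3K4me3 log2 ratio of male KO cells was -0.42 over 21.4 kb, below its span of -0.19 to 0.23 and, at -0.417, below that of -0.260 to 0.264 on windows of 700 kb, and that of female KO cells was -0.01. The H3K27ac ratios there were 0.21 and -0.28, and the H3K27me3 ratios, over only 15 kb, were 0.05 and 0.03. In bins of lists kept from their median count upwards, the type I H3K4me3 ratios were 0.54 and -0.062 and the female KO H3K27me3 ratio was -0.11. The spread between cultures is unknown.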

How the data were processed

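The submitters' processing notes name Bowtie 1.1.2, SICER 1 and build mm9. The authors deposited 1 list per library, giving for each region its borders and a whole number, taken here to be its read count. No header says so, and the reading rests on the values and on SICER's usual output. Total depth, the control library and the false discovery rate were not given in the sources used here. Reads in regions ranged from 2396174 to 18507923 per list.

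Lists were turned into bins of 200 bp, on whose grid all borders fell, in Python 3.11.15 with numpy 2.4.6, scipy 1.17.1 and matplotlib 3.10.9. Chromosome lengths of mm9 came from GenomeInfoDb 1.38.1. For each mark, overlapping or touching regions of the 3 lists were merged, and a list counted as holding a merged region from an overlap of 1 bp. The count of a region was spread evenly over its bins for levels and log2 ratios. Log2 ratios used 5 Mb windows with at least 20 kb of shared bins. No region was filtered out. Intervals are 95% Wilson or exact Poisson intervals and cover counting error only. The merging was run on simulated lists, which recovered 200 of 200 planted gains, and as many losses, in every mark. The simulated KO lists were identical and differed from WT only at the planted regions. This checks the code only, and not how lists that differ in borders or depth compare.

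The members, gene groups and windows were chosen with earlier results of these data known. By a rule, named regions are the merged H3K4me3 regions, the largest regions of the lists, and certain merged regions of at least 5 kb. The latter are those in both KO lists but not WT or in WT and neither KO. Some regions named above fall outside this rule and were picked by their values. Among them are H3K27ac regions in male KO and WT but not female KO, or in male KO alone, and further H3K27me3 regions. Groups came from sample titles. Coordinates are 1-based mm9 positions. Alternatives were stricter lists, lists of the same covered length, wider and narrower windows, other overlaps and other centring.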

Additional observations from a re-analysis of the deposited data

How the results depend on the processing

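Shares and counts are given below in the order female KO, male KO and WT, for H3K4me3, then H3K27me3, then H3K27ac. In lists kept from their median count upwards, the marks covered 8.54, 7.94 and 7.89, 72.2, 47.3 and 23.2, and 25.5, 30.9 and 28.1% of the type II window, and 2.39, 1.03 and 3.79, 17.0, 3.03 and 2.02, and 31.3, 17.7 and 15.2% of the type I window. With lists of the same covered length by count, the type II shares were 8.54, 11.1 and 10.5, 53.1, 42.6 and 25, and 24.3, 30.9 and 31.4%, and the type I shares 2.39, 2.74 and 4.78, 5.43, 0 and 2.02, and 30.2, 17.7 and 17.1%. By reads per kb they were 8.57, 11.1 and 8.54, 61.6, 46.3 and 25, and 25.5, 32.1 and 31.4%, and 1.22, 2.74 and 3.93, 3.22, 2.25 and 2.02, and 23.5, 13.4 and 17.1%. Windows widened by 50 kb gave 13, 12.2 and 14.8, 64.0, 43.1 and 21.9, and 34.1, 38.6 and 33.05%, and 6.97, 3.53 and 7.18, 22.9, 4.29 and 2.08, and 35.2, 22.6 and 18.4%. Windows narrowed by 50 kb gave 3.20, 4.43 and 5.93, 85.3, 57.4 and 29.2, and 16.5, 23.7 and 21.5%, and 5.64, 2.36 and 5.66, 14.0, 2.55 and 1.30, and 32.9, 20.5 and 16.3%. The order of H3K27me3 coverage, female KO above male KO above WT, held in the type II window under these 5 settings. In the type I window male KO coverage was below that of WT with lists of the same covered length by count.

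Merged H3K4me3 regions in all 3 lists numbered 4 with stricter lists, 6 with each equal-length setting, 17 in wider and 5 in narrower windows, against 11. Those in both KO lists and not WT numbered 1 with stricter lists, against 0, and those in WT and neither KO numbered 1, 0 and 1 with stricter lists and the equal-length lists by count and by reads per kb, against 4. For H3K27me3, regions in all 3 lists numbered 4 with each equal-length setting and 2 when a list had to cover 50% of the merged region, against 8. Those in both KO lists and not WT numbered 1 by count and 3 by reads per kb, against 6, and those in WT and neither KO 2 by count, against 0. Only the KO lists lose length in those settings for H3K27me3 and H3K27ac. For H3K27ac, regions in all 3 lists numbered 9 with stricter and equal-length lists and 8 at 50% coverage, against 14. Those in both KO lists and not WT numbered 0 with both equal-length settings and 1 in narrower windows, against 2, and those in WT and neither KO 2 with stricter lists, 6 with both equal-length settings and 2 at 50% coverage, against 1.

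H3K4me3 regions with H3K27ac numbered 6, 6 and 7 with stricter lists and 8, 7 and 11 in narrower windows, and with equal-length lists 6 in the female KO line and 11 or 9 in WT. H3K4me3 regions with H3K27me3 numbered 0 in both male lines with stricter lists, 0 in WT with equal-length lists, and 1 in the female KO line in wider windows.

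In bins of the lists kept from their median count upwards, the log2 ratio over WT was -0.16 for H3K4me3 of the male KO line and 0.39 for H3K27me3 of the female KO line in the type II window. In the type I window it was 0.54 and -0.062 for H3K4me3 of the female and male KO lines and -0.11 for H3K27me3 of the female KO line. Wider windows gave -0.056 for H3K4me3 of the male KO line in the type II window, and 0.016 and -0.15 for H3K4me3 and 0.30 and -0.058 for H3K27ac of the female and male KO lines in the type I window. Centring on windows of 700 kb gave 0.45 and -0.011 for H3K27me3 of the female KO line in the type II and type I windows. With that centring, the type II ratios of male KO cells for H3K27me3 and H3K27ac (0.311 and 0.327) no longer lay above the 95th percentile of the windows compared. The sign of the type I ratios of H3K4me3 and H3K27me3 in the female KO line therefore turned with the setting, and the cause was not tested. No paired analysis was possible because each mark and line has 1 library, so no group has a second replicate. Total depth is unknown, and the WT H3K27me3 list holds the fewest reads, 2396174.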
